A study of Mus musculus with 8 samples.

Results

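The libraries compared here are 8 pancreatic tumour isografts, mouse tumours grown from transplanted mouse tumour material, sorted by the level of a transcript that reports ERK activity. The libraries were chosen by the measured value of that transcript, Dusp6: a library was placed in the high group where the deposited log2 value of Dusp6 was 11.5 or more, and in the low group where it was lower. The high group holds 4 of the 8 libraries (control 1, control 2, MEKi 2 and MEKi 3), and the low group holds the other 4 (control 3, control 4, MEKi 1 and MEKi 4). Each group has 2 libraries with the control label and 2 with the MEKi label. The drug label was ignored in forming the groups, and no treatment was read from a library's Dusp6 level. The MEKi label stands for treatment over 7 days with trametinib, which blocks MEK1 and MEK2, the kinases upstream of ERK. The sources used here do not give what the control mice received, the strain, sex and age of the mice, or the genotype and origin of the tumour cells. The labels give 1 library per mouse, and they name whole tumour tissue, so tumour cells, stroma, immune cells and remaining pancreas are measured together.

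ERK is the last kinase of the RAS, RAF, MEK cascade, which carries signals from receptor tyrosine kinases to the nucleus. Active ERK switches on its own inhibitors, among them the DUSP phosphatases and the Sprouty and SPRED proteins, together with immediate early genes such as EGR1, ETS-family and AP-1 transcription factors, MYC, and ligands of the EGF receptor. The transcripts of these genes are used as a readout of pathway output, since blocking MEK lowers them within hours.

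Because a measured value chose the groups, every difference between them is given as a description, without a test. The background for each count is the share of all 19129 genes measured. Of these, all high libraries lay above all low ones for 6.59% and below for 7.38%, or 10.1% and 11.0% without MEKi 4. On the deposited variance-stabilised log2 scale a difference of 1 is about a doubling for abundant transcripts, and more than that for rare ones. Values of the high group are given in the order control 1, control 2, MEKi 2, MEKi 3, and values of the low group in the order control 3, control 4, MEKi 1, MEKi 4. In whole tumours, fewer cells of a type and less RNA per cell cannot be told apart.

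Dusp6, which encodes the cytoplasmic phosphatase that removes phosphate from ERK (chromosome 10, 99263231 to 99267489, GRCm38), was 12.19, 12.14, 12.12 and 12.20 in the high group. It was 9.31, 9.24, 8.88 and 11.01 in the low group. The libraries nearest to the threshold were MEKi 2 at 12.12 on its upper side and MEKi 4 at 11.01 on its lower side, so MEKi 4 lay 1.11 below the high group and 1.70 above the next library of its own group. The high libraries lay close together (12.16 ± 0.04, SD, n = 4), while the low group was 3 close libraries and MEKi 4. Results are therefore given with MEKi 4, and for some genes and lists also without it. Where no value without MEKi 4 is given, the result can still change when it is left out. Spry4, the second marker of ERK output, whose product damps signalling from receptor tyrosine kinases (chromosome 18, 38586247 to 38601415), was 9.82, 9.88, 9.88 and 9.43 in the high group and 7.66, 7.20, 7.25 and 9.04 in the low group. The groups did not overlap for Spry4, with a difference in means of 1.97, or 2.38 without MEKi 4. Spry4 thus sorted the libraries as Dusp6 did.

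Depth did not follow the split. Reads in genes ran from 20182531 to 31797960 in the high group and from 20090101 to 38569550 in the low group, with MEKi 4 the deepest. Over all genes, each of the 8 libraries was closest to a library of its own Dusp6 group and of the other drug label (8 of 8, with 0 of 8 closest to a library of its own label). Most other libraries of a Dusp6 group carry the other label, and some margins were small. Control 3 was at 6.90 from MEKi 1 and 7.13 from control 4. Control 2 was at 8.86 from MEKi 2 and 9.22 from control 1, and MEKi 3 at 12.96 from control 1 and 13.68 from MEKi 2. The measure sets differences in reads against sampling noise, so it grows with depth. The nearest pairs were control 4 with MEKi 1 and control 1 with MEKi 2, whose reads still differed by 4.38 and 5.13 times sampling noise. MEKi 4, the deepest library, stood furthest from any other, at 19.6 times the noise from control 3. The first principal component, 34.8% of the variance, ran from -49.8 in control 3 to 43.6 in MEKi 3 and mixed the groups. The second, 26.5% of the variance, was 17.5, 31.7, 13.9 and 7.26 in the high group and 3.45, -19.0, -7.79 and -47.0 in the low group, with no overlap.

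The promoter of Dusp6 is shown because its transcript set the groups, and those of Plaur and Lif because they hold an AP-1 match and belong to genes whose transcripts separated the groups. AP-1 and ETS factors are the classical nuclear targets of the pathway. Each stretch is the 250 bases before the start of the gene (RefSeq, GRCm38.p6), 5′ to 3′ on the plus strand, with an AP-1 match in capitals. The stretches are chr10:99262981-99263230 for Dusp6, chr7:24462233-24462482 for Plaur, the urokinase receptor gene, and chr11:4257318-4257567 for Lif, a cytokine gene.
Dusp6: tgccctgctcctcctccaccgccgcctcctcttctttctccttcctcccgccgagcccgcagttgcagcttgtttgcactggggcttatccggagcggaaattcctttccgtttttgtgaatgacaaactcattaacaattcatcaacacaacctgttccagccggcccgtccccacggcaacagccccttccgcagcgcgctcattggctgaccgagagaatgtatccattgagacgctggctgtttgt
Plaur: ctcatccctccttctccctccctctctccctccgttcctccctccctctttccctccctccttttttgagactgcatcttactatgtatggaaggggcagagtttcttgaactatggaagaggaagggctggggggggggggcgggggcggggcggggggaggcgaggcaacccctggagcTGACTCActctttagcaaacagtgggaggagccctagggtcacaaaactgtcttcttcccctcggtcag
Lif: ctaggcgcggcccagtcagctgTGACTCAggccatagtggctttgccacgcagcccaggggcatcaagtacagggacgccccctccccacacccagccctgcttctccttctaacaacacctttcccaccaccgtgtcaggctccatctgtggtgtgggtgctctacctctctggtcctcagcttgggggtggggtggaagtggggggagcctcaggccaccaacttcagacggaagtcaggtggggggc
The letters TGANTCA (AP-1) and CCGGAA (ETS) were searched on both strands, from 250 bases before to 50 after the start, in the promoters of 28 of the 39 measured ERK list genes, Dusp6 included. Some genes have several promoters in the table, and a gene was counted where any of them held the letters. The AP-1 letters were found for 4 of the 28 genes (14.3%; Plaur, Lif, Il11 and Emp1), against 7.07% of the 12832 measured genes with a promoter. The ETS letters were found for 2 of 28 (7.14%), against 27.2%. These are matches of letters, and the Dusp6 stretch holds neither.

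Transcripts of ERK-induced genes were higher in the high group across the pathway's feedback inhibitors, transcription factors and secreted products. Of the 38 genes on 3 lists of ERK output other than Dusp6, all 4 high libraries lay above all 4 low libraries for 29 and below them for 0. Among all genes the same held for 6.59% above and 7.38% below. The median difference of the 38 genes was 0.98, against 0.00 over all genes. For 31 of the 38, the high libraries lay above control 3, control 4 and MEKi 1 when MEKi 4 was set aside, against 10.1% of all genes. Of the genes listed, Dkk1 was not among the measured ones.

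**Figure D1:**
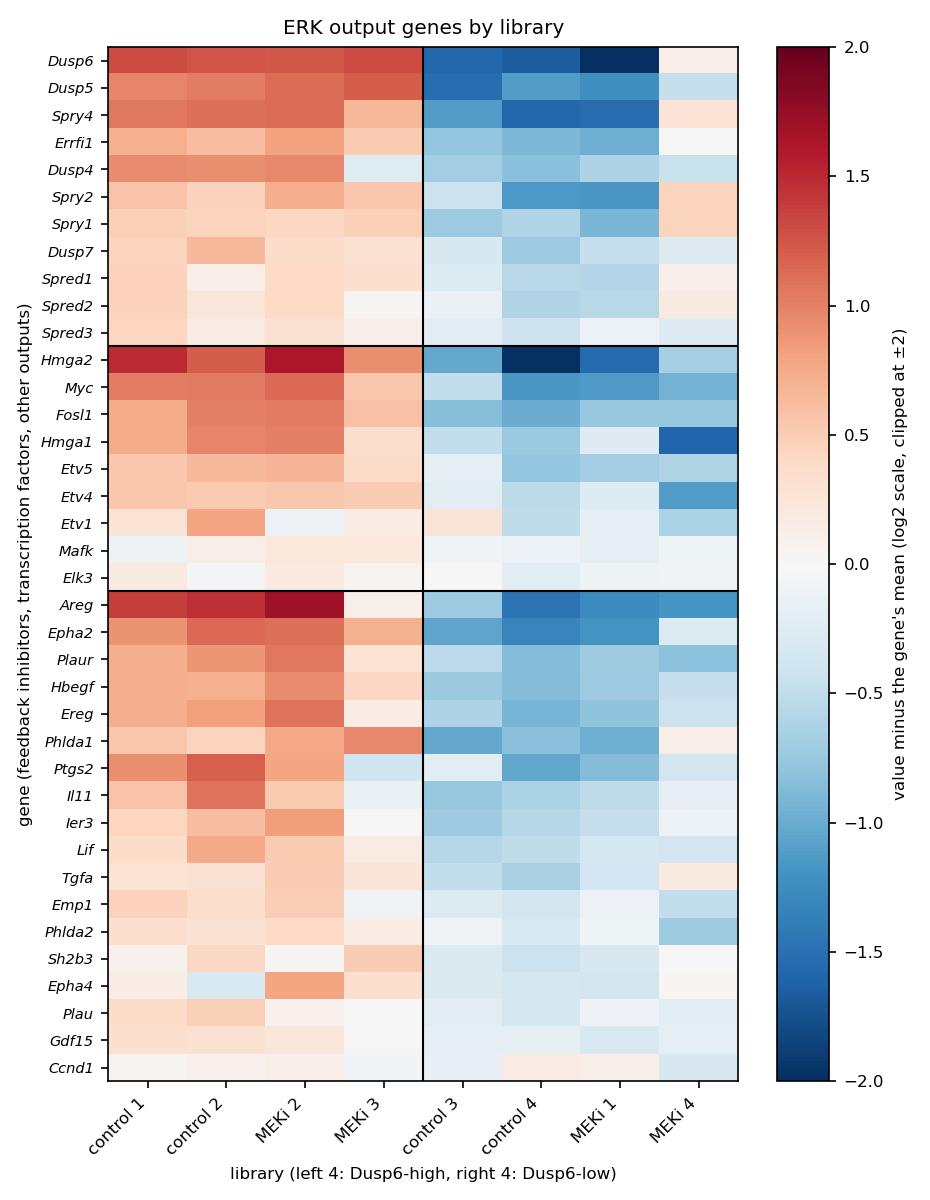
Heat map of genes of the 3 ERK output lists (rows) in the 8 libraries (columns), coloured by the deviation of each log2 value from the gene's mean over the libraries. Controls 1 and 2 and MEKi 2 and 3 share 1 colour over most rows, controls 3 and 4 and MEKi 1 share the other, and MEKi 4 differs between rows.

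Feedback inhibitors were higher in the high group for 10 of 10 genes by the mean, as were 50.1% of all genes, and 8 of the 10 had no overlap between the groups. Their list mean was 10.64, 10.56, 10.64 and 10.37 in the high group and 9.36, 9.13, 9.17 and 9.98 in the low group, a difference of 1.14. Dusp5, whose product is a nuclear phosphatase for ERK, was 9.65, 9.69, 9.79 and 9.89 against 7.15, 7.56, 7.46 and 8.21, a difference of 2.16 and 5.8-fold in normalized reads. Dusp4, another nuclear MAP kinase phosphatase gene, was 11.51, 11.49, 11.53 and 10.32 against 9.86, 9.72, 9.94 and 10.11. For Dusp4, MEKi 3 lay close to the low group. Errfi1, which encodes an inhibitor of the EGF receptor kinase, was 12.75, 12.66, 12.85 and 12.54 against 11.27, 11.13, 11.06 and 12.04. Dusp7 (0.89), Spred1 (0.66) and Spred3 (0.50) also had no overlap.

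For Spry1 and Spry2, Sprouty genes like Spry4, MEKi 4 was near the level of the high group. Spry2 was 9.50, 9.39, 9.66 and 9.47 in the high group and 8.51, 7.79, 7.77 and 9.38 in the low group, so that MEKi 4 lay just under the lowest high library. Spry1 was 10.03, 9.999, 9.97 and 10.04 in the high group and 8.83, 8.95, 8.64 and 10.002 in the low group. The groups overlapped for Spry1, and also for Spred2, only through MEKi 4.

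Among ERK-driven transcription factor genes, 6 of 9 had no overlap and all 9 had the higher mean in the high group, with a list difference of 1.21. Hmga2, which encodes an oncofetal chromatin protein and is known as a RAS-responsive gene, had the largest difference (chromosome 10, 120361275 to 120476469). It was 12.25, 11.98, 12.37 and 11.68 against 9.74, 8.72, 9.23 and 10.10, a difference of 2.63 and 6.38-fold in normalized reads. Its relative Hmga1 was 12.90, 13.13, 13.17 and 12.51 against 11.67, 11.42, 11.90 and 10.57. Every high library was above every low library for both genes, and MEKi 4 was the highest low library for Hmga2 and the lowest for Hmga1. Myc, the growth regulator (chromosome 15, 61985391 to 61990374), was 12.21, 12.23, 12.31 and 11.72 against 10.70, 10.02, 10.05 and 10.23, 3.78-fold in normalized reads. Fosl1, which encodes the AP-1 subunit FRA1, was 8.76, 9.03, 9.06 and 8.602 against 7.16, 7.03, 7.25 and 7.25.

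The PEA3 factor genes Etv4 and Etv5, ETS genes whose transcription follows ERK activity, were also separated. Etv4 was 11.20, 11.19, 11.22 and 11.18 against 10.45, 10.15, 10.42 and 9.56. Etv5 was 10.98, 11.09, 11.12 and 10.82 against 10.25, 9.67, 9.75 and 9.85. The high libraries of Etv4 had an SD of 0.01 (n = 4). Etv1 (0.54), Mafk (0.23) and Elk3 (0.20) had higher means in the high group with overlap.

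Ligands, receptors and other outputs gave 15 of 19 measured genes without overlap, and 19 of 19 with the higher mean in the high group. Areg, which encodes amphiregulin, a ligand of the EGF receptor, had the largest difference of the list (2.32). It was 8.85, 8.93, 9.17 and 7.58 against 6.75, 5.995, 6.19 and 6.29, 13.5-fold in normalized reads. Ereg, the gene of the EGF receptor ligand epiregulin, was 7.62, 7.71, 7.97 and 7.04 against 6.27, 5.96, 6.09 and 6.46. Hbegf (1.40) and Tgfa (0.66), which encode further ligands of this receptor, had no overlap either, so all 4 ligand genes of the list lay higher. Epha2, an ephrin receptor gene, was 11.70, 11.94, 11.90 and 11.52 against 9.74, 9.49, 9.61 and 10.54. Plaur, whose promoter is printed above, was 11.97, 12.12, 12.30 and 11.52 against 10.73, 10.38, 10.54 and 10.42, and Lif was 9.76, 10.16, 9.92 and 9.56 against 8.83, 8.90, 9.05 and 9.02.

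Ccnd1, the cyclin D1 gene and often described as an ERK target, was not separated. It was 12.67, 12.70, 12.75 and 12.57 in the high group and 12.45, 12.79, 12.73 and 12.29 in the low group, a difference of 0.10. Epha4, an ephrin receptor gene, and Ptgs2, the inducible cyclooxygenase gene, overlapped as well, with differences of 0.49 and 1.26.

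Immediate early genes, which growth factors induce within minutes, were separated in part. Of 19, 9 lay above and 2 below without overlap, against 6.59% and 7.38% of all genes, with a list difference of 0.67. Egr1 had the largest difference of them (chromosome 18, 34859823 to 34864984), at 10.59, 10.56, 10.55 and 10.26 against 7.51, 7.40, 6.91 and 9.16, 6.94-fold in normalized reads. Egr2 was 8.79, 8.89, 8.72 and 8.89 against 6.83, 6.94, 6.86 and 7.23, and Egr3 was 7.50, 7.66, 7.59 and 7.47 against 6.13, 6.10, 5.98 and 5.93. These zinc-finger factor genes therefore split the libraries with gaps of over 1 on the log2 scale. Jun, which encodes an AP-1 subunit and is driven mainly through the JNK pathway, lay the other way, at 11.04, 11.08, 11.16 and 10.70 against 11.99, 12.09, 11.83 and 11.67. Nr4a2 was also lower in the high group (-0.34). Fos (1.17) and Junb (0.90) overlapped only through MEKi 4.

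**Figure D2:**
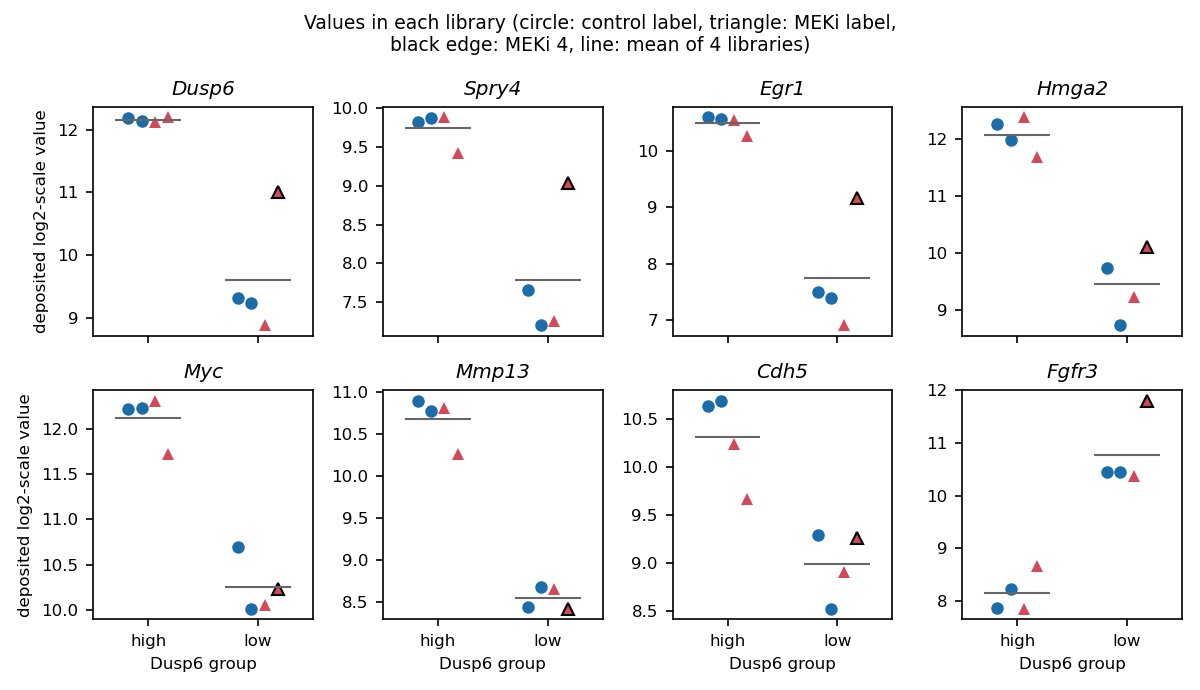
Log2 values of 8 genes in each library, by Dusp6 group (horizontal positions). Circles are control-labelled and triangles MEKi-labelled libraries, the black edge marks MEKi 4, and each line is the mean of 4 libraries. Both labels occur at the high and at the low level of every gene.

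Transcripts of the cascade itself had smaller differences than its outputs. Of 18 RAS, RAF, MEK and ERK pathway genes, 4 lay above and 1 below without overlap, against 6.59% and 7.38% of all genes. The list difference was 0.12. Without MEKi 4, 9 lay above and 1 below, against 10.1% and 11.0% of all genes, and the list difference was 0.17. Map2k1, which encodes MEK1, a target of trametinib, was 11.54, 11.48, 11.49 and 11.35 against 11.08, 10.80, 11.16 and 11.12, a difference of 0.42. The kinase genes Map2k2 (MEK2) and Mapk3 (ERK1) overlapped, with differences of 0.09 and 0.14, and Mapk3 no longer did without MEKi 4 (0.23). Receptor tyrosine kinase genes went both ways, with Kit (0.82), Egfr (0.49) and Axl (0.37) higher and Fgfr3 and Met lower without overlap.

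Over all genes, 132 (0.69%) lay higher and 96 (0.502%) lay lower in the high group without overlap and with a difference of at least 1. Of the 132, 19 were on the ERK output lists, Dusp6 included, and 113 were not. The 12 largest higher differences included Egr1, Hmga2, Areg and Dusp5, described above, and Crisp1, a secreted cysteine-rich protein gene (11.21, 10.12, 10.55 and 10.09 against 8.18, 7.05, 7.48 and 8.10). Mcpt8, a protease gene of basophils, was 10.57, 10.78, 10.32 and 9.45 against 8.07, 7.01, 8.19 and 7.32. Acan, the aggrecan gene, was 11.92, 12.17, 12.07 and 11.36 against 9.56, 9.78, 10.32 and 7.99. In each of these 3 genes MEKi 3 was the lowest library of the high group, and MEKi 4 was within or below the range of the other low libraries. Mmp13, a collagenase gene (chromosome 9, 7272514 to 7283331), was 10.90, 10.78, 10.81 and 10.26 against 8.43, 8.67, 8.65 and 8.41. Aldh1a3, which encodes a retinaldehyde dehydrogenase, was 13.85, 13.77, 13.96 and 12.75 against 12.01, 11.31, 12.03 and 10.59. The rest were Fam84a (2.42), the serine protease gene Prss22 (2.24) and Ptprn (2.12), a dense-core vesicle protein gene.

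The largest lower difference was that of Fgfr3, which encodes a fibroblast growth factor receptor (chromosome 5, 33721674 to 33737068). It was 7.87, 8.23, 7.85 and 8.67 in the high group and 10.44, 10.45, 10.38 and 11.80 in the low group, 8.15-fold more normalized reads in the low group. Aadac, which encodes a lipid esterase of liver and gut, was 8.04, 7.19, 8.56 and 8.11 against 10.48, 10.39, 9.76 and 11.62. For both genes MEKi 4 lay beyond the other low libraries. Others of the 12 were Pzp (-2.15), Mybpc2 (-1.85), Akr1c14 (-1.83), Npr3 (-1.82), Olfr558 (-1.81), Cym (-1.74, or -1.08 without MEKi 4), Chodl (-1.71), Cyp4f14 (-1.70) and Fam107a (-1.68), among them the natriuretic peptide clearance receptor gene Npr3 and the fatty acid hydroxylase gene Cyp4f14. MEKi 4 also raised the low mean of several of these. Its normalized reads were 1256 for Akr1c14, against 196 to 397 in the other low libraries. They were 564 for Olfr558 (others 90.5 to 162), 659 for Fam107a (108 to 246) and 378 for Cyp4f14 (100 to 131). For Mybpc2 MEKi 4 was the lowest of the low libraries, at 337 (476 to 662).

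The difference was present under both drug labels. Genes were counted where the libraries did not overlap and the means differed by at least 1. Within the control label, controls 1 and 2 lay above controls 3 and 4 for 205 of the 19129 genes, and below them for 109. Within the MEKi label, MEKi 2 and 3 lay above MEKi 1 and 4 for 166 genes, and below them for 189. The higher sets shared 86 genes, 42.0% of the control-label set and 51.8% of the MEKi-label set. The lower sets shared 54 genes, 49.5% and 28.6%. These comparisons share no library, and Dusp6, which fixed the sides of both, was left out. Genes that vary with Dusp6 are still placed by it in both comparisons. A split of 2 against 2 often shows no overlap, and no background was taken for the shared genes, so these counts are a description. The list differences under the control and the MEKi label were 1.35 and 0.93 for feedback inhibitors, 1.22 and 1.20 for transcription factors, and 1.10 and 0.82 for the other outputs.

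**Figure D3:**
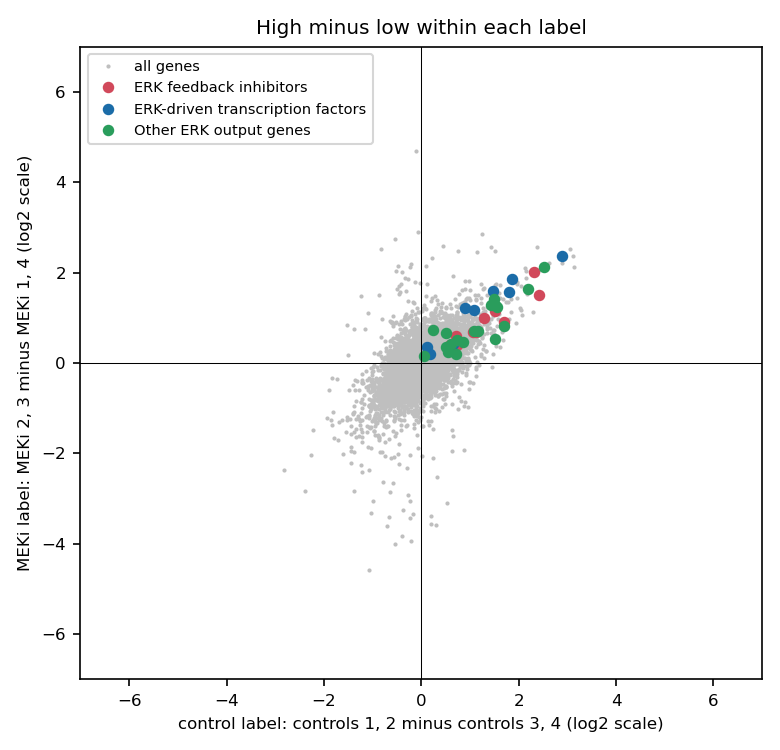
Difference in log2 value of every gene within the control label (controls 1 and 2 minus controls 3 and 4, horizontal) and within the MEKi label (MEKi 2 and 3 minus MEKi 1 and 4, vertical). Each point is a gene, the ERK list genes are marked, and they lie mostly in the upper right, higher in the high libraries of both labels.

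MEKi 4 was intermediate by Dusp6, and its place depended on the gene. On a scale with 0% at the mean of controls 3 and 4 and MEKi 1, and 100% at the mean of the high group, it stood at 99.3% for Spry1, 91.3% for Spry2, 70.0% for Spry4, 65.2% for Phlda1 and 57.2% for Errfi1. It stood at 30.5% for Hmga2, -1.17% for Myc, -86.1% for Hmga1 and -90.4% for Etv4. Of the 31 ERK genes that separated the high group from the other 3 low libraries, MEKi 4 was nearer to the high group for 9 and nearer to the low libraries for 22. By role, it was nearer to the high group for 6 of 10 feedback inhibitors, 0 of 6 transcription factors and 3 of 15 other outputs. It lay below the low mean for 9 of the 31, including Myc, Etv4, Etv5, Areg and Plaur. Over all genes with a difference of at least 1 without it, its median place was 18.2% for 132 genes higher in the high group and -11.0% for 91 lower genes.

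**Figure D4:**
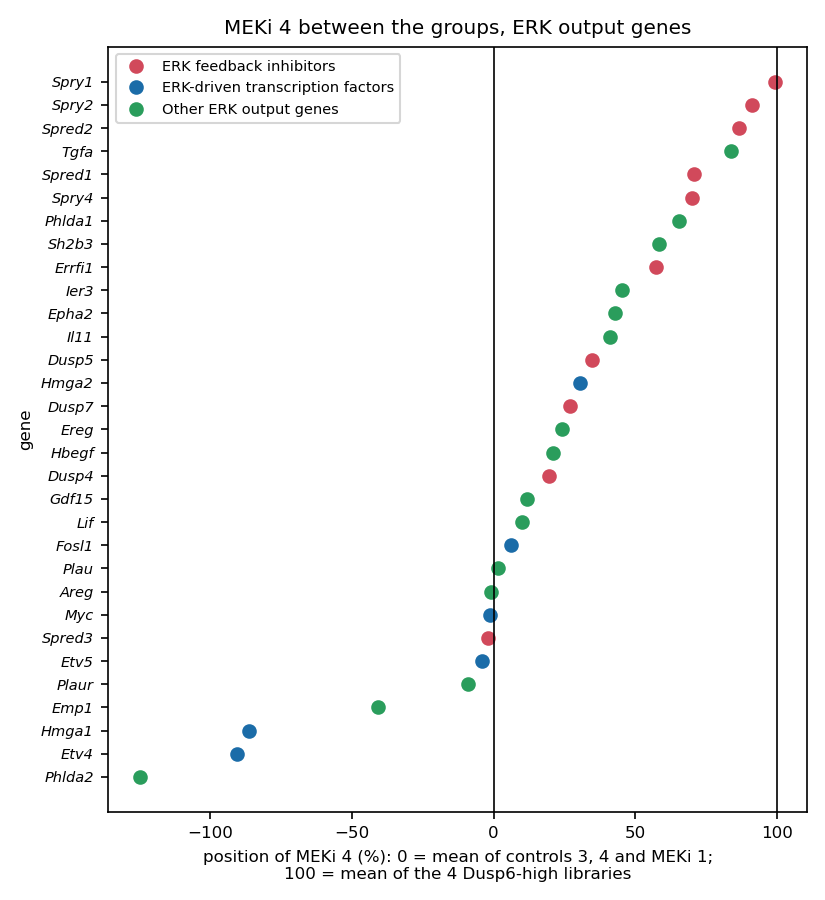
Place of MEKi 4 for each of the 31 ERK genes, in percent of the way from the mean of controls 3 and 4 and MEKi 1 (0%) to the mean of the high group (100%). Spry1 and Spry2 lie above 90%, and Etv4 and Hmga1 lie below 0%.

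MEKi 4 also lay outside the range of the other 7 libraries for most epithelial genes. Of 15 such genes it was the lowest library for 10, the highest for 2 (Cdh1 and Muc1) and within the range for 3. The share of all genes for which it was the lowest or the highest was not counted, so these counts have no background. MEKi 4 was also the library furthest from the others over all genes. Epcam, the epithelial cell adhesion gene, was 10.70 in MEKi 4 and 12.66 to 13.10 elsewhere. The epithelial list mean was 11.04 in MEKi 4 and 11.63 to 12.08 in the others, and the part of this in its ERK gene values was not tested. Epithelial genes as a group did not follow the split, with 0 of 15 above and 3 below (Tjp3 -0.69, Muc1 -0.34, and Cdh1 -0.16, or -0.10 without MEKi 4). Their list difference of 0.11 turned to -0.13 without MEKi 4, and Krt19, the ductal keratin gene, overlapped (0.18). Among 15 classical and gastric-type genes, Agr2 (1.52) and Anxa10 (0.88) were higher and Spink4 (-1.11) lower without overlap. Agr2 is a secretory pathway gene of mucous epithelium. Without MEKi 4, 4 of the 15 lay above, against 10.1% of all genes. Ivl (1.64), the involucrin gene, and Dsg3 (0.34), a desmoglein gene, were higher and Trp63 (-0.81) lower without overlap among the 8 basal genes measured. Dsg3 was near the floor, at 4.08 to 11.5 normalized reads in the high group and 1.21 to 3.19 in the low group. Its separation therefore rests on few reads. The basal list difference of 0.15 was 0.01 without MEKi 4.

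Mitotic genes were higher in the high group while DNA replication genes were not. All 18 mitotic genes had the higher mean, as did 50.1% of all genes, and 12 of them had no overlap, against 6.59%. The list difference was 0.43, with list means of 10.59 to 10.77 against 10.05 to 10.47. The cyclin genes Ccnb2 (0.66) and Ccnb1 (0.65) and the anaphase activator gene Cdc20 (0.64) led them. Of 18 DNA replication genes, 0 lay above and 0 below, and without MEKi 4, 6 lay below, as did 11.0% of all genes, with a list difference of -0.25. Among MYC and ribosome biogenesis genes 2 of 18 lay above and 0 below. Their list difference of 0.19 was 0.04 without MEKi 4, which had the lowest list mean (10.91). Cell cycle inhibitor and p53 target genes gave 1 above and 1 below of 15.

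Blood vessel markers were higher in the high group. All 14 endothelial genes had the higher mean, as did 50.1% of all genes. Without overlap, 4 lay above, and 7 when MEKi 4 was set aside, against 6.59% and 10.1% of all genes. The list mean was 9.32 to 9.89 in the high group and 8.72 to 9.04 in the low group. Cdh5, which encodes the adhesion protein VE-cadherin (chromosome 8, 104101625 to 104144511), was 10.63, 10.69, 10.24 and 9.66 against 9.29, 8.53, 8.91 and 9.26. Cldn5 (1.27), the tight junction gene of endothelium, and Tie1 (0.90), an endothelial receptor gene, did not overlap, and Pecam1 (0.70) did. Lymphatic endothelial genes had 2 of 7 above, against 6.59% of all genes. Their list difference of 0.15 turned to -0.12 without MEKi 4. Red cell genes had a list difference of 1.65, or 0.95 without MEKi 3, with 1 of 5 above, and their list mean ran from 7.60 to 11.08 in the high group, with MEKi 3 and control 2, at 9.29, as the highest. The part of vessel and blood content in the other differences was not tested.

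Several genes of myeloid chemokines and growth factors were separated. Of 21 myeloid growth factor and chemokine genes, 7 lay above and 1 below, against 6.59% and 7.38% of all genes. The list mean was 8.74 to 9.43 against 8.38 to 8.57. Ccl7, a monocyte chemoattractant gene, was 8.59, 9.02, 8.14 and 7.26 against 7.07, 6.62, 6.60 and 7.02. Ccl12 (1.23), a related chemokine gene, and Csf3 (1.17), the granulocyte growth factor gene, were also higher. Csf1, the macrophage growth factor gene, was the one that lay below, at 10.64, 10.88, 10.41 and 10.48 against 11.14, 11.19, 11.12 and 11.07. Ccl2, a monocyte attractant gene of the same family, had a higher mean in the high group (1.05), and MEKi 4, at 8.22, lay above MEKi 3, at 8.17.

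Macrophage markers, the subject of the study's title, overlapped between the groups as a list. The list mean was 10.22 to 10.91 in the high group and 10.02 to 10.40 in the low group. The difference was 0.28, or 0.14 without control 2. Of 21 genes 3 lay above and 0 below, against 6.59% and 7.38% of all genes. The 3 included Mertk (0.58), a receptor gene for the uptake of dead cells, and Fcgr1 (0.52), an Fc receptor gene. Adgre1 (-0.16), Csf1r (0.23), Cd68 (0.43) and Mrc1 (0.90) overlapped. Neutrophil genes had the higher mean for 13 of 13, as did 50.1% of all genes. Of the 13, 3 lay above without overlap, against 6.59% of all genes. The 3 were Mmp9 (1.46), Trem1 (0.81, or 0.50 without MEKi 4) and Il1b (0.80). The neutrophil difference of 0.58 was 0.30 without MEKi 4, which had the lowest list mean (7.71), and 0.35 without MEKi 3. Monocyte and dendritic cell genes gave 1 of 15 above (Ccr7, 0.86), with a list difference of 0.37 that was 0.18 without MEKi 3.

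Lymphoid, mast cell, antigen presentation and interferon lists had at most 1 gene each without overlap. T cell genes gave 1 above and 0 below of 16 (list difference -0.25, and -0.06 to -0.44 with 1 library left out), and NK genes gave 0 of 12, B and plasma cell genes 0 of 12, and MHC class II and class I genes 0 of 9 and 0 of 10. Mast cell genes gave 1 of 8 and interferon-stimulated genes 1 of 19, the antiviral gene Rsad2 (1.30). B and plasma cell genes had the higher mean for 12 of 12 with overlapping list means of 6.97 to 8.76 and 6.95 to 7.60, and their list difference of 0.51 was 0.17 without MEKi 3.

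Fibroblast genes differed by 0.04 as a list, with 0 of 13 without overlap. Among adventitial and inflammatory fibroblast genes 3 of 13 lay above, including Lif and Ly6c1 (0.72), against 6.59% of all genes. The complement gene C3 (-0.92) lay below. Myofibroblast genes gave 1 above and 0 below of 13. Of 14 matrix protease genes 2 lay above and 2 below, against 6.59% and 7.38% of all genes. Mmp13 and the stromelysin gene Mmp10 (1.62) lay above, and Mmp11 (-0.71, or -0.46 without MEKi 4) and Timp2 (-0.29) below. EMT genes gave 2 above of 10 and YAP-TEAD genes 3 of 11, against 6.59% of all genes, with list differences of 0.27 and 0.24. The YAP-TEAD list holds pathway genes such as Yap1 and Tead1 beside targets. Yap1 was 1 of the 3 above, narrowly, with 2699 normalized reads in control 2 and 2695 in MEKi 4. Without MEKi 4, 5 of the 10 EMT genes and 5 of the 11 YAP-TEAD genes lay above, against 10.1% of all genes. Of the YAP-TEAD genes 2 then lay below, against 11.0% of all genes.

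Acinar and islet genes were lower by the mean in the high group, with overlap. The acinar list mean was 13.83 in control 2 and 15.40 in control 3, which belong to different Dusp6 groups, and 5.76 in MEKi 3. All 19 acinar genes had the lower mean in the high group, with a list difference of -1.49, which was 0.15 without control 3, -3.11 without control 2, -2.36 without control 4 and -0.42 without MEKi 3. Of 12 islet genes 11 had the lower mean, with a list difference of -1.08, which was -0.63 without MEKi 3. No acinar gene of 19, islet gene of 12 or mesothelial gene of 8 was free of overlap. Without MEKi 4, 2 of the 12 islet genes lay below, against 11.0% of all genes, and the islet list difference was -1.25. Of 7 Schwann and nerve genes 4 lay below (S100b -0.56), against 7.38% of all genes. Of 7 adipocyte genes 1 lay below, the lipid droplet gene Plin4 (-1.24, or -0.70 without MEKi 4). Without MEKi 4, 3 adipocyte genes lay below and 1 above, against 11.0% and 10.1% of all genes. The list of RNA quality genes was 12.31 to 12.46 in the high group and 12.27 to 12.45 in the low group. Heat shock genes gave 2 of 11 above (0.36), against 6.59% of all genes. Glycolysis, sterol synthesis, unfolded protein response, skeletal muscle and prostate secretion lists had 0 genes without overlap. Oxidative phosphorylation genes had 3 of 14 below, against 7.38% of all genes, with a list difference of -0.07. Without MEKi 4, 5 of the 14 lay below, against 11.0% of all genes, with a list difference of -0.14.

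**Figure D5:**
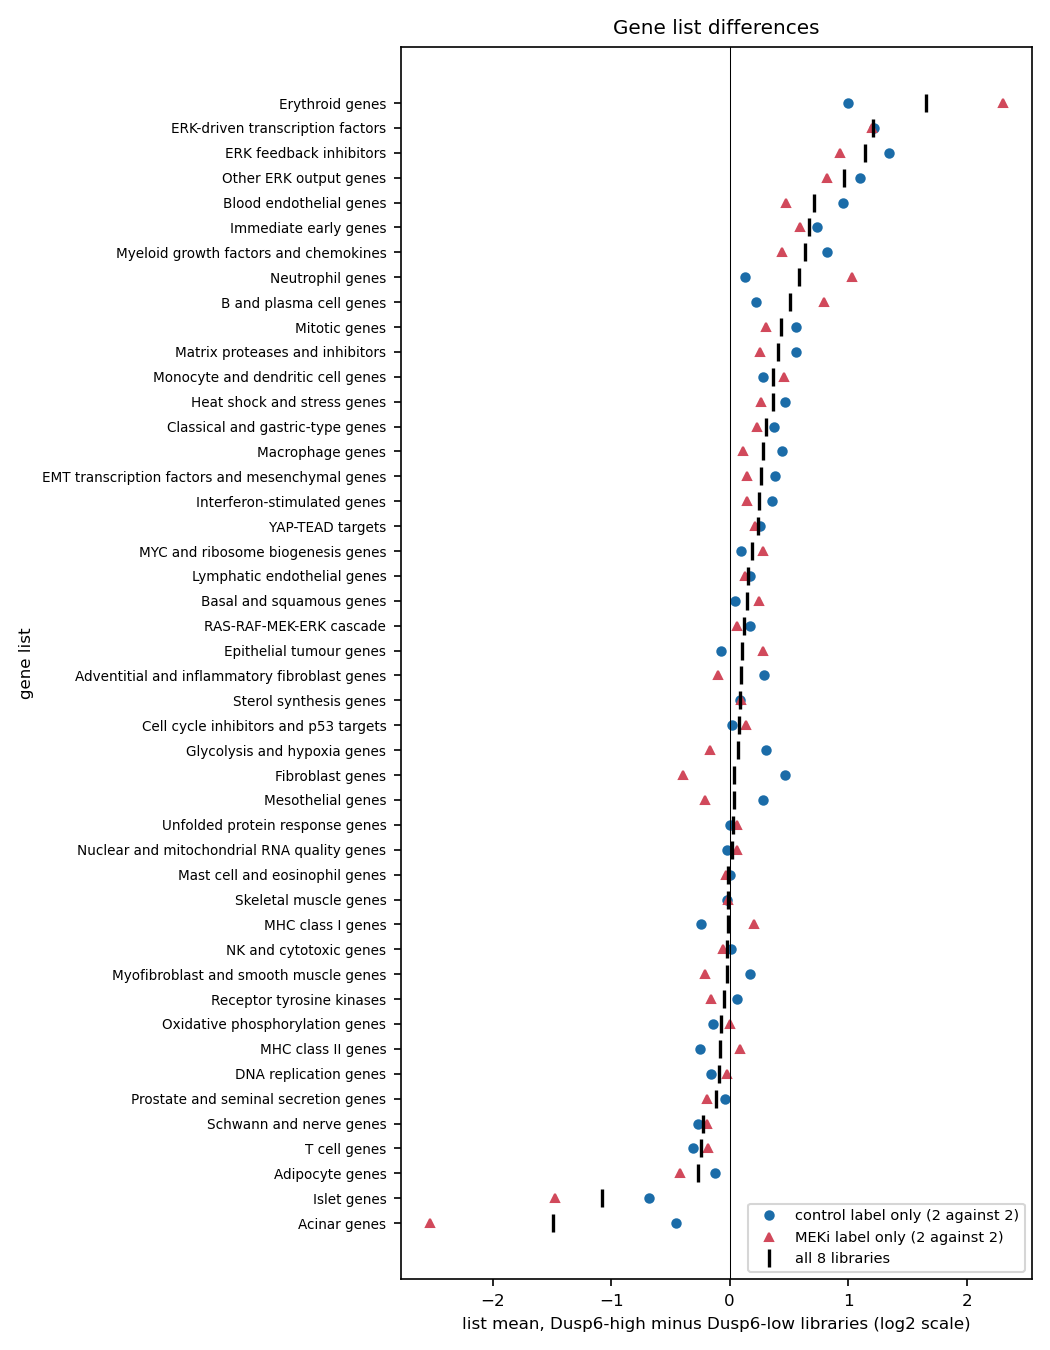
Difference in list mean (log2, high minus low) of all 46 gene lists, over all 8 libraries, within the control label and within the MEKi label. The ERK output lists lie at about 1 in all 3 comparisons, while the acinar and red cell lists spread widely.

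The drug labels gave the only groups not set by a measured value. Whether each library carries the right label cannot be told from these values, so the differences that follow are between libraries as labelled. Limma called 0 of the 38 ERK genes between the MEKi and control labels, with 0 at an unadjusted p under 0.05, and 20 were higher and 18 lower in sign under the MEKi label. Their differences ran from -0.43 to 0.43 with a median of 0.01. For Hmga2 the MEKi minus control difference was 0.17 (95% interval -1.83 to 2.17), for Egr1 0.21 (-1.98 to 2.39), for Dusp5 0.32 (-1.30 to 1.95) and for Myc -0.21 (-1.62 to 1.20). Intervals of this width do not show that the labels are alike. With the Dusp6 group in the model, which takes the split out of the error, the interval was -0.47 to 0.81 for Hmga2 and -0.60 to 0.18 for Myc. That covariate is a measured value that these genes follow, so the narrower intervals are a description. Over all genes limma called 1 (0.00523%), and 338 had an unadjusted p under 0.05. With the Dusp6 group as a covariate it also called 1, with 472 at an unadjusted p under 0.05. The gene, 9530002B09Rik, named after its values were seen, was at the value of 0 reads in all 4 MEKi-labelled libraries and at 6.98, 6.47, 7.25 and 6.70 in controls 1 to 4 (limma adjusted p = 0.0235, and 0.0493 with the covariate). Its level did not follow the Dusp6 group (-0.12). The call was lost without control 1 or without any single MEKi-labelled library. The prostate secretion list, with 5 measured genes, was higher in every control-labelled library than in every MEKi-labelled one. Its list mean was 7.54, 7.50, 8.14 and 6.97 in controls 1 to 4. In MEKi 1 to 4 it was 5.43, 5.58, 5.16 and 5.68, near the floor. This was seen after the fact and was not tested as a list. The limma p-values set the difference between the labels against the spread between these mice within a label. That spread includes the Dusp6 split, except where the Dusp6 group was in the model.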

How the data were processed

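RNA from 8 isografts was sequenced as strand-specific total RNA libraries, per the labels' protocols. The submitters' processing notes name STAR 2.5.3a, DESeq2 1.18.1 and the build GRCm38. No source used here gives the counting step. The deposited values are variance-stabilised log2 values made by the authors, with a floor of 5.12 for 0 reads. Inverting them gave whole reads for 100% of values (within 0.01), from which depth and normalized reads were taken.

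Of 19431 rows, 32 naming no gene (0.101% to 0.167% of reads) were left out, and for 86 symbols with several rows the highest was kept, which left 19129 genes, each with at least 25 reads in all. Values of genes with near-identical copies are therefore uncertain.

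Libraries were grouped by Dusp6 (11.5 or more). The groups, the members and the 46 gene lists were chosen with earlier results of these data known. Genes named are all ERK list members, the 12 largest differences per direction without overlap, up to 3 such genes per other list (or the largest difference) and a fixed set. The others are named as members of a described list, after their values were seen. Some genes the rule names are not reported here. A list value is the mean over its measured genes. Labels were compared with limma 3.58.1 in R 4.3.3 (trend, two-sided, Benjamini-Hochberg, threshold 0.05), tested on simulated data. Alternatives were other scalings, filters, a replicate block, the Dusp6 group as a covariate and leaving out each library. Figures were drawn with matplotlib 3.10.9.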

Additional observations from a re-analysis of the deposited data

Results flagged for a closer look

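A check for single libraries that stood apart within their Dusp6 group covered 400 groups of 4 values and marked 23. This is close to the 1 in 20 that chance marks, so the marks are listed as a description. Many of the genes checked had been picked for their differences in these data. A library was marked where its gap to the nearest one took up most of the group's range (Dixon's test at 95%). In the low group 7 of the 8 marked values were MEKi 4: Ccl2 at 8.22 (the next 7.67), Fgfr3 at 11.81 (10.45), Met at 13.21 (12.49), Mmp11 at 10.79 (9.84), Phlda1 at 8.84 (7.88), Vegfc at 7.67 (8.85) and the skeletal muscle list at 6.85 (6.67). The eighth was H2-Ob in control 3 at 7.54 (8.11).

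In the high group MEKi 3 stood apart for ERK outputs and others: Dusp4 at 10.32 (11.49), Egr1 at 10.26 (10.55), Spry4 at 9.43 (9.82), Myc at 11.72 (12.22), Aldh1a3 at 12.75 (13.77), Prss22 at 9.69 (10.21), Il1b at 10.6 (10.93) and Uqcrc2 at 11.35 (11.49). Its list means stood apart for glycolysis and hypoxia, at 11.24 (11.97), and MHC class I, at 12.73 (11.88). Control 2 stood apart for Acta1 at 5.34 (5.67), Cdc20 at 10.53 (10.28) and the DNA replication and sterol synthesis lists, at 10.44 (10.32) and 10.69 (10.43). MEKi 2 stood apart for Tgfa at 10.57 (10.35). The myofibroblast list went opposite ways within the labels in every library, with a high minus low difference of 0.17 under the control label and -0.21 under the MEKi label, and that difference was not tested.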

How the results depend on the processing

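The counts of genes without overlap were 1261 above and 1412 below. With a minimum difference of 1 they were 132 and 96, by construction, and with 1 library left out 1462 to 1925 and 1648 to 2101, since fewer libraries overlap less. The count above moved by over 1.5 times without MEKi 3 (1904) or MEKi 4 (1925). Quantile normalization shared 1061 and 1234 of these genes. The median of all genes moved by less than 0.02 under each scaling. The list difference was 0.66 for feedback inhibitors and 0.56 for other ERK outputs with the median over members in place of the mean, and 1.27 for other outputs on log2(normalized reads + 1); the cause was not tested. With 1 library left out the ranges were 1.05 to 1.33, 1.15 to 1.29 for transcription factors, and 0.90 to 1.07. The sign of the 3 ERK list differences was the same in all alternatives, while it turned in at least 1 alternative for 21 of the 46 lists, mostly those near 0, and for 6 of 154 named genes.

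Limma called 1 gene between the labels, 0 with a replicate block, 0 among the 75% of genes with the highest mean and 0 to 2 with 1 library left out. The replicate numbers did not pair the libraries (correlations of -0.33, 0.20, -0.47 and 0.02 for numbers 1 to 4), so the block result is only given here. With 4 libraries per group, each mouse can move a group mean. Depth limits the rare transcripts, whose differences are compressed near the floor of 5.12.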
